A study of Mus musculus with 8 samples.

Results

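The subcortical maternal complex is a protein assembly of the mammalian egg and early embryo. Its genes were taken here as Nlrp5, Ooep, Tle6, Khdc3, Padi6 and Zbed3, and every probe set that the platform annotation ties to exactly 1 of these symbols was included. These are 6 of 18193 genes so named on the array. They had 9 of the 45037 probe sets that are not controls: 4 for Zbed3 and 1 for each of the other 5 genes. The filter on dim signal was passed by 8 of the 9. Total RNA of 20 mouse embryos at the 2-cell stage was pooled for each sample, and 4 samples labelled wild type were compared with 4 labelled Brg1 mutant on Affymetrix arrays with 45101 probe sets. BRG1, encoded by Smarca4, is the motor subunit of BAF complexes, which slide and evict nucleosomes, and the series title names maternal BRG1 and activation of the zygotic genome. The labels give no allele, strain, Cre transgene or parental genotype for either group, and the published study is known for removing Brg1 from growing oocytes with an oocyte-specific Cre. Embryos were pooled, so differences between single embryos are not seen.

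The complex lies beneath the plasma membrane of the egg and is kept out of the zone where blastomeres touch. Its transcripts are made while the oocyte grows, and most are broken down around the first cleavages while the proteins persist. Loss of Nlrp5, Ooep, Tle6 or Padi6 from the mouse egg stops or badly slows development at early cleavage, and loss of Khdc3 delays it and disturbs chromosome segregation. Transcript level at the 2-cell stage therefore reads what is left of a maternal store together with anything the embryo makes.

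The arrays differed in ways that touch every value below. Mutant replicates 3 and 4 stood apart: over the tested probe sets their log2 signals correlated with each other at r = 0.969, against 0.747 to 0.758 with any wild type array. Their correlation with mutant replicates 1 and 2 was 0.738 to 0.774. The summed signal of 19 granulosa and cumulus cell markers was 19660 to 23250 on mutant replicates 3 and 4, 1829 to 3034 on mutant replicates 1 and 2 and 2708 to 3520 on wild type arrays. Hsd3b1 (8835 and 6889) and Vim (4526 and 3107) made up much of that sum on replicates 3 and 4. On replicates 3 and 4 together, 12 of the 19 lay above every wild type array and 1 below. The share of all tested probe sets that did so is not given here, but 37.2% passed limma's test there in either direction. Cyp11a1, Foxl2 and Star did not pass there (limma adjusted p = 0.592, 0.341 and 0.0595). Amh and Ptx3 stayed under the background bound, the level that 95% of bacterial control probe sets did not exceed. The summed signal of 9 oocyte and embryo markers, none under that bound on any array, was 45490 to 48330 on mutant replicates 1 and 2, 19410 to 21680 on replicates 3 and 4 and 17750 to 23280 in wild type. Hybridisation controls, which are added in fixed amount, summed to 4.81 and 3.37 times the wild type mean on mutant replicates 1 and 2, against 0.713 to 1.24 times on the other 6 arrays. The ratio of 3 prime to 5 prime actin signal was 4.88 to 15.05 in mutant and 16.3 to 21.15 in wild type samples (exact permutation p = 0.0286, adjusted p = 0.0571 over 4 array measures). For Gapdh this ratio was 6.63 to 7.33 in mutant and 8.58 to 10.13 in wild type samples, with the same exact permutation p and adjusted p. The labels were checked on Smarca4, whose brighter probe set fell from 675 ± 83.0 to 288 ± 76.9 (SD, n = 4 each, log2 change -1.26, limma adjusted p = 0.0211). Its other probe set did not pass (adjusted p = 0.963). The brighter one passed in 2 of the 8 fits with 1 sample left out. Because of these differences the mutant samples are also given as replicates 1 and 2 and replicates 3 and 4.

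**Figure D1:**
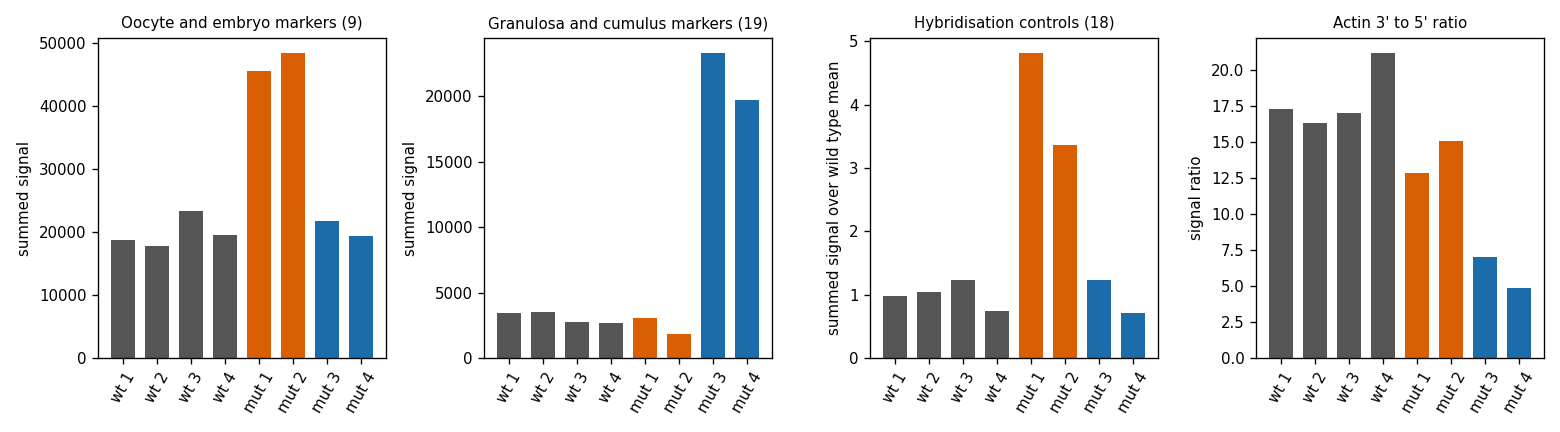
Array measures by sample, wild type (wt, grey), mutant replicates 1 and 2 (orange) and mutant replicates 3 and 4 (blue): summed MAS5 signal of 9 oocyte and embryo markers and of 19 granulosa and cumulus markers, summed hybridisation control signal over the wild type mean, and the actin 3 prime to 5 prime signal ratio. Oocyte markers and hybridisation controls stand out on mutant replicates 1 and 2 (45490 to 48330 summed marker signal), granulosa markers on replicates 3 and 4 (19660 to 23250).

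None of the 8 tested probe sets of the complex passed limma's test at an adjusted p of 0.05 when all mutant samples were compared with all wild type samples, where 6.56% of all 22519 tested probe sets did (2.98% higher and 3.58% lower). At an unadjusted p under 0.05, 3 of the 8 passed, beside 25.5% of all tested probe sets. The same 3 were the ones whose groups did not overlap, beside 17.5% of all tested. Nlrp5 and Padi6 lay higher in every mutant sample (7.83% of all tested did), and 1 Zbed3 probe set lay lower (9.67% did). The median log2 change over the 8 was 0.22, beside -0.05 over all tested probe sets. Its sign turned with quantile normalization (-0.04, beside -0.14) and with array weights (-0.13, beside -0.14). With array weights 2 members passed as higher and 2 as lower, where 51% of all tested probe sets passed. Scalings other than the deposited one moved the median of all tested probe sets from -0.05 to between -0.14 and -0.23, and changes are to be read relative to that shift.

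Sequences before the annotated starts of Nlrp5, Padi6 and Zbed3 are shown because these are the genes with a probe set that separated the groups. They are the 250 bases before each start from RefSeq (GRCm38.p6), 5′ to 3′ on the gene's strand, with every CANNTG hexamer in capitals. CANNTG is the E-box bound by basic helix-loop-helix factors such as FIGLA, an activator of oocyte genes. A match on one strand is also one on the other.
Nlrp5 first start, chr7:23385639-23385888 (+ strand): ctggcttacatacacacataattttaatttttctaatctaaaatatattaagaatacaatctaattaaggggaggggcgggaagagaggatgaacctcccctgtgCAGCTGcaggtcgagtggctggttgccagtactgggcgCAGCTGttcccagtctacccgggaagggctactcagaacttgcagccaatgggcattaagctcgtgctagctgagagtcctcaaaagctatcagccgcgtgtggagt
Nlrp5 second start, chr7:23403852-23404101 (+ strand): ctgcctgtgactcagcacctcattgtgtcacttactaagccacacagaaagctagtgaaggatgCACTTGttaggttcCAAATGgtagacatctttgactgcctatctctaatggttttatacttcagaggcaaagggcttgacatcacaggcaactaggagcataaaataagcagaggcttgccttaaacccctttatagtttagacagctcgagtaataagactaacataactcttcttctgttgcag
Padi6, chr4:140742644-140742893 (- strand): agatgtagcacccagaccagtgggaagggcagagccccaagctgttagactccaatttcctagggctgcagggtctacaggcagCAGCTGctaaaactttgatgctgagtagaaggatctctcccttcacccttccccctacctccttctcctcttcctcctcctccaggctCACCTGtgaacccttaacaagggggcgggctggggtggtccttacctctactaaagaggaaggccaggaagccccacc
Zbed3 first start, chr13:95323355-95323604 (+ strand): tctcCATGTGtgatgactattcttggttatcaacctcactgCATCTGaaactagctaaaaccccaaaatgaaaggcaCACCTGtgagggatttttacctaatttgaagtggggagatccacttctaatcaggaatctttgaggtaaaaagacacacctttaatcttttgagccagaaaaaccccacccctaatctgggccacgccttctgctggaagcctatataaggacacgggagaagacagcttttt
Zbed3 second start, chr13:95324575-95324824 (+ strand): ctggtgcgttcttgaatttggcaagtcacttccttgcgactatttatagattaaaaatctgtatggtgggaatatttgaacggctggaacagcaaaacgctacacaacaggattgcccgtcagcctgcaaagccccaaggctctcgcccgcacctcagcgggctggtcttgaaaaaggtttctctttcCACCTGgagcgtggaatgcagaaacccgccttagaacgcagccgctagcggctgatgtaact
Zbed3 last start, chr13:95326517-95326766 (+ strand): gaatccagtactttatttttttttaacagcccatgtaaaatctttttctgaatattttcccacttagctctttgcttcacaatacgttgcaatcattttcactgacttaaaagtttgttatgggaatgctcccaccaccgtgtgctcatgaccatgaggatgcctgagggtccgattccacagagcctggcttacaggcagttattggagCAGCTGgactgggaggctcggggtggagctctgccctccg
All 6 genes matched the RefSeq table, with 10 windows in all. A CANNTG hexamer was present in 10 of 10, beside 66.2% of 32817 windows of the same length genome-wide. The TATA motif TATAAA, searched on both strands, was present in 2 of 10, the second start of Nlrp5 and the second of Zbed3, beside 12.4% genome-wide. A match describes these letters only.

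Nlrp5 encodes MATER, the NLR-family protein around which the core of the complex is built. Its probe set read 997.6, 539.5, 1256 and 1261 in wild type replicates 1 to 4, and 1591, 2665, 2211 and 1618 in mutant replicates 1 to 4. Every mutant sample was above every wild type sample, and both mutant pairs were high. The means were 1014 ± 339 and 2021 ± 516 (SD, n = 4 each). The log2 change was 1.04 (SE 0.319, 95% interval 0.33 to 1.74), or 2.05-fold, and did not pass (limma adjusted p = 0.0759). Against wild type, mutant replicates 1 and 2 gave a log2 change of 1.10 and replicates 3 and 4 one of 0.98 (limma adjusted p = 0.0707 and 0.0512). The difference between these pairs was -0.12 (adjusted p = 0.843). Against wild type, Nlrp5 in replicates 3 and 4 passed under 4 of 8 other settings of that fit (adjusted p from 0.0184 to 0.142). It passed as well with mutant replicates 1 and 2 left out (adjusted p = 0.0421, where 41.6% of all tested probe sets passed). The 2 annotated starts lie 18213 bases apart. RefSeq also lists a transcribed pseudogene, Nlrp5-ps, and whether the probes separate the copies was not tested.

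Ooep encodes FLOPED, a small KH-domain protein that binds MATER. Its signal was 1329, 807, 2601.5 and 2623 in wild type samples and 1391, 2406, 1017 and 845 in mutant samples. Wild type replicates alone spanned 3.25-fold, with replicates 3 and 4 high and replicate 2 as low as the lowest mutant. The groups overlapped, with means of 1840 ± 917 and 1415 ± 699 (SD, n = 4 each) and a log2 change of -0.34 (95% interval -1.31 to 0.64, limma adjusted p = 0.684). Ooep in mutant replicates 1 and 2 differed from wild type by 0.15 on the log2 scale and in replicates 3 and 4 by -0.83 (limma adjusted p = 0.852 and 0.166), so that its direction turned with replicates 3 and 4 left out. With array weights Ooep passed as lower, at -1.07 over all mutant samples and -1.16 in replicates 3 and 4 (limma adjusted p = 0.0110 and 0.00762). With 1 sample left out it ran from -0.68, without wild type replicate 2, to -0.11, without wild type replicate 4. Both of replicates 3 and 4 lay below both of replicates 1 and 2 (log2 difference -0.98, adjusted p = 0.169).

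Tle6 encodes a transducin-like protein that has lost the usual repressor role of its family and serves in the complex. Its signal in wild type samples was 767, 753, 649 and 749. Mutant samples read 1132, 1533, 839.8 and 639, so that replicates 1, 2 and 3 lay above the wild type range and replicate 4 just under it. Means were 730 ± 54.1 and 1036 ± 388 (SD, n = 4 each), with a log2 change of 0.43 (95% interval -0.19 to 1.06, limma adjusted p = 0.370). In mutant replicates 1 and 2 Tle6 rose 1.81-fold against wild type (log2 change 0.86, limma adjusted p = 0.0304, where 11.5% of all tested probe sets passed). In replicates 3 and 4 the log2 change was 0.01 (adjusted p = 0.977). Between the mutant pairs the difference was -0.85 (limma adjusted p = 0.0262, where 30.6% of all tested probe sets passed), which was lost with median centring (adjusted p = 0.0846). The rise in replicates 1 and 2 did not pass with arrays centred on their median (0.61, adjusted p = 0.120), with no intensity trend or with array weights (adjusted p = 0.0586 and 0.0886), nor in a fit of those samples and wild type alone (adjusted p = 0.0541).

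Khdc3 encodes FILIA, the KH-domain partner of MATER and FLOPED that has been linked to spindle assembly and to the DNA damage response. Its signal was low but above the background bound on all 8 arrays: 174, 142, 101.5 and 78.2 in wild type and 123, 182, 92.9 and 69.3 in mutant samples. The groups overlapped throughout. Means were 124 ± 42.4 and 117 ± 48.8 (SD, n = 4 each), with a log2 change of -0.11 (95% interval -0.92 to 0.70, limma adjusted p = 0.886). The sign turned without wild type replicate 1 (0.07) and without mutant replicate 4 (0.11). Mutant replicates 1 and 2 gave 0.34 and replicates 3 and 4 gave -0.56 on the log2 scale (adjusted p = 0.562 and 0.232).

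Padi6 encodes a peptidylarginine deiminase of the egg that is needed for the cytoplasmic lattices, fibrous stores of ribosomes and maternal proteins. It read 386, 462, 491 and 454 in wild type and 746, 1087, 621 and 647 in mutant samples. Every mutant sample was above every wild type sample, with replicates 1 and 2 above replicates 3 and 4. Means were 448 ± 44.4 and 775 ± 215 (SD, n = 4 each), with a log2 change of 0.76 (95% interval 0.23 to 1.29), or 1.69-fold, which did not pass (limma adjusted p = 0.0839). In mutant replicates 1 and 2 Padi6 rose 2.02-fold (log2 change 1.01, limma adjusted p = 0.0185), and in replicates 3 and 4 the log2 change was 0.51 (adjusted p = 0.0958). The difference between the pairs was -0.51 and did not pass (95% interval -1.07 to 0.06, limma adjusted p = 0.155). The rise in replicates 1 and 2 was lost with median centring and with array weights (adjusted p = 0.0800 and 0.0522).

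**Figure D2:**
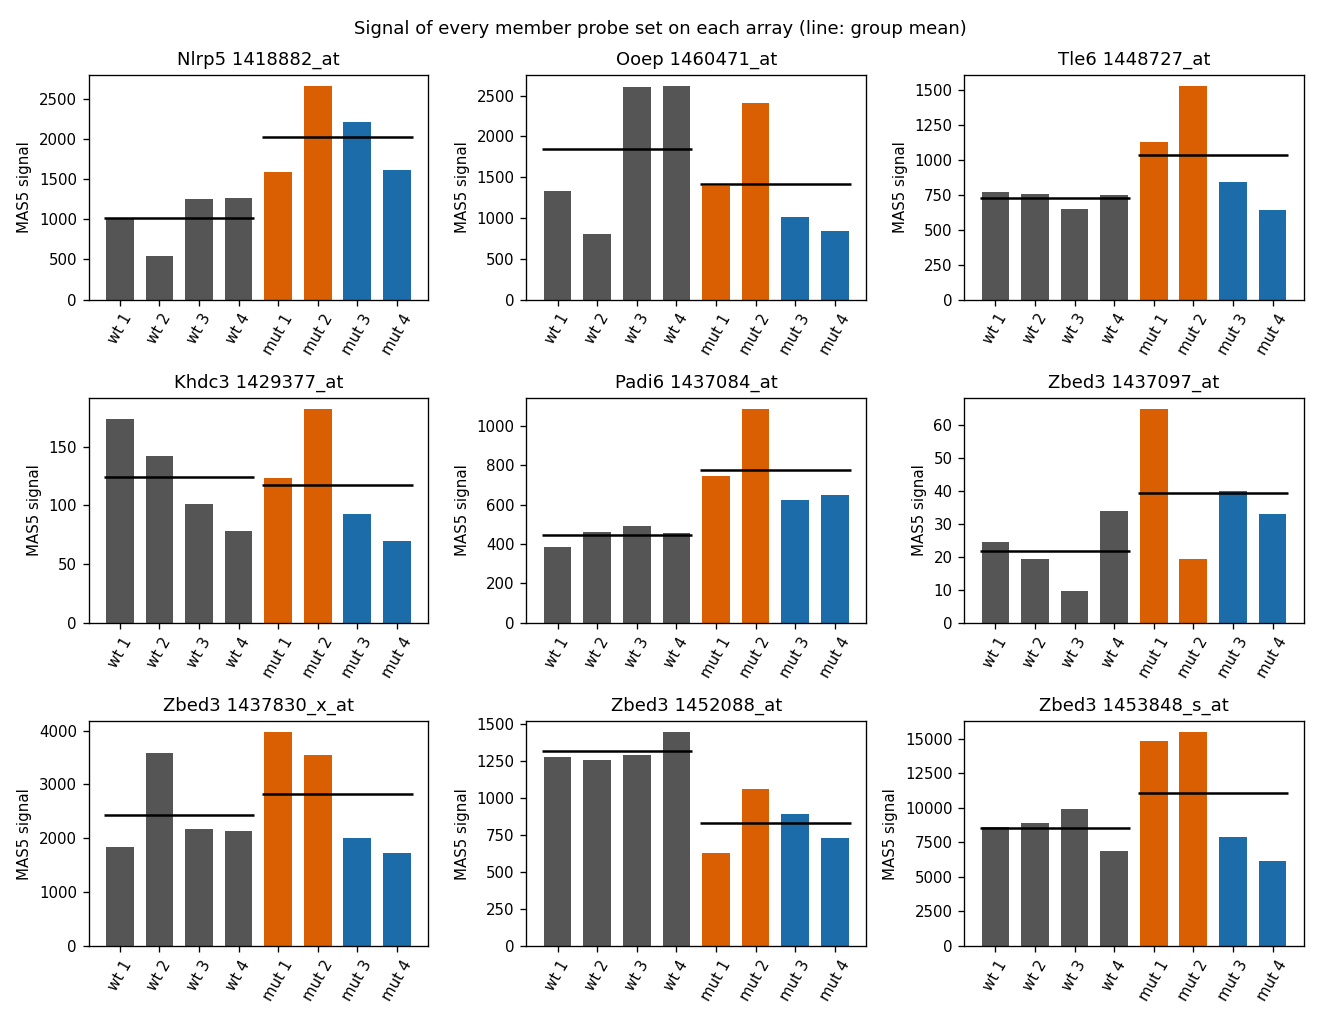
MAS5 signal of the 9 member probe sets (linear axis from 0) in wild type replicates 1 to 4 (grey), mutant replicates 1 and 2 (orange) and mutant replicates 3 and 4 (blue), with black lines at the mean of each group of 4. Nlrp5 and Padi6 are above the wild type range in all 4 mutant samples and Zbed3 1452088_at is below it, while Ooep, Khdc3 and the other Zbed3 probe sets overlap.

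Zbed3 encodes a BED zinc finger protein, first known as a partner of Axin in Wnt signalling and later placed in the complex, where it has been linked to the position of the cleavage plane. Its 4 probe sets did not behave alike. Probe set 1452088_at read 1279, 1259.9, 1292 and 1448 in wild type and 628, 1064, 893.5 and 732 in mutant samples. All mutant samples were below all wild type samples, which spanned 1.15-fold. The means of 1452088_at were 1320 ± 86.3 and 829 ± 191 (SD, n = 4 each), with a log2 change of -0.70 (95% interval -1.20 to -0.19), 1.62-fold lower, which did not pass (limma adjusted p = 0.0928). Both mutant pairs gave about the same change, -0.69 in replicates 1 and 2 (adjusted p = 0.0834) and -0.70 in replicates 3 and 4 (limma adjusted p = 0.0368, where 20.5% of all tested probe sets passed as lower). That call was lost with quantile normalization, no filter and no intensity trend (adjusted p = 0.0519, 0.0518 and 0.0645). With mutant replicate 2 left out the overall comparison passed as well (log2 change -0.83, limma adjusted p = 0.0352). In that fit 1514 of all 22519 tested probe sets passed as lower and 1411 as higher.

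Probe set 1453848_s_at gave another picture. It read 8653, 8875, 9906 and 6871 in wild type and 14873, 15506, 7905 and 6126 in mutant samples, so that replicates 1 and 2 were above every wild type sample while replicate 4 was below. The log2 change over all samples was 0.27 (95% interval -0.47 to 1.02, limma adjusted p = 0.664). In mutant replicates 1 and 2, Zbed3 1453848_s_at rose 1.79-fold (log2 change 0.84, limma adjusted p = 0.0187), but this turned to -0.25 after quantile normalization (adjusted p = 0.126) and did not pass with median centring, no filter, no trend or array weights (adjusted p from 0.0631 to 0.0832). Replicates 3 and 4 gave -0.29 (adjusted p = 0.238), and the difference between the pairs was -1.13 (limma adjusted p = 0.00335), or -0.005 after quantile normalization (adjusted p = 0.980). Probe set 1437830_x_at had the same order of mutant pairs, with wild type signals of 1834, 3585, 2178 and 2144 and mutant signals of 3975, 3548, 2013 and 1732. Its replicates 1 and 2 overlapped wild type (log2 change 0.67, limma adjusted p = 0.110). The log2 change of 1437830_x_at was 0.17 over all samples (limma adjusted p = 0.798) and -1.01 between the mutant pairs (adjusted p = 0.0255). The difference between the pairs did not pass with quantile normalization or with no intensity trend (adjusted p = 0.0940 and 0.0514). The suffixes _s_at and _x_at mark probes that can also match other transcripts. The fourth, 1437097_at, read 9.8 to 33.8 in wild type and 19.5 to 65.0 in mutant samples, did not exceed the bound on 3 arrays of wild type and 1 of mutant samples, and was too dim to be tested.

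The ratio of 2 Zbed3 probe sets on the same array does not change when an array is multiplied by a factor, but it does under quantile normalization, which alters bright and dim signals differently. The signal of 1453848_s_at over that of 1452088_at was 6.76, 7.04, 7.67 and 4.75 in wild type samples and 23.7, 14.6, 8.85 and 8.37 in mutant samples. All mutant ratios were above all wild type ratios, with replicates 3 and 4 only slightly so. The mean log2 ratio was 2.69 ± 0.305 for wild type and 3.66 ± 0.703 for mutant (SD, n = 4 each), a difference of 0.97 or 1.96-fold (exact two-sided permutation p = 0.0286, the smallest that 70 assignments allow). After quantile normalization the difference was 0.35 and did not pass (exact two-sided permutation p = 0.0857). This ratio was chosen after the values were seen. Without mutant replicates 3 and 4 the difference was 1.53 (exact two-sided permutation p = 0.0667, the smallest possible there), and without replicates 1 and 2 it was 0.42 (exact permutation p = 0.2). After quantile normalization both were 0.35. RefSeq lists 3 starts for Zbed3, with 1220 bases from the first to the second and 1942 from the second to the last, shown above. Which transcript, or part of it, a probe set reads was not analysed here.

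**Figure D3:**
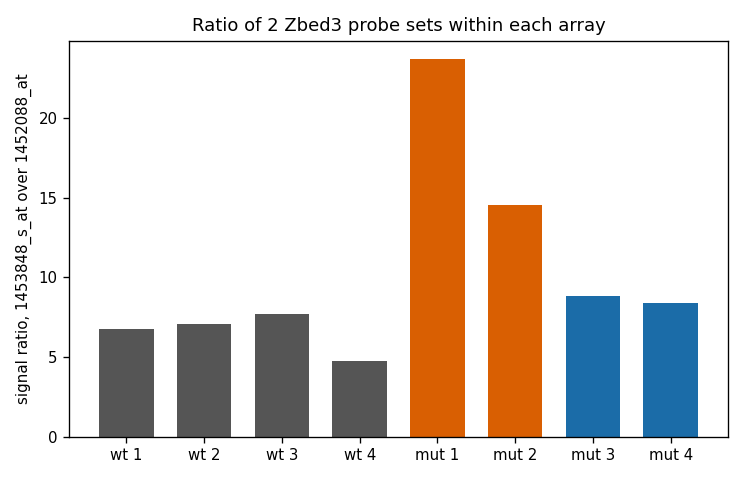
Ratio of MAS5 signals of 2 Zbed3 probe sets within each array (linear axis from 0), for wild type samples (grey), mutant replicates 1 and 2 (orange) and mutant replicates 3 and 4 (blue). Wild type ratios run from 4.75 to 7.67, and mutant ratios are 23.7, 14.6, 8.85 and 8.37.

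The members read differently in the 2 mutant pairs. In replicates 1 and 2, 7 of 8 tested probe sets had a log2 change above 0, beside 53.4% of all tested, and 3 passed as higher (Padi6, Tle6 and Zbed3 1453848_s_at), beside 6.16%. The median over the 8 was 0.76, beside 0.05 for all. In replicates 3 and 4, 3 of 8 were above 0, beside 41.5%, and 1 passed, as lower (Zbed3 1452088_at), beside 20.5% (37.2% passed in either direction), with a median of -0.31 beside -0.20. Both comparisons share the 4 wild type samples. Between the pairs, 0 of 8 log2 differences were above 0, beside 40.3% of all tested, and 3 passed as lower (Tle6 and Zbed3 1453848_s_at and 1437830_x_at), beside 17% of all tested, with a median of -0.87 beside -0.24. For 6 of the 8, both of replicates 3 and 4 lay below both of replicates 1 and 2, beside 42.6% of all tested. Zbed3 holds several of the 8 probe sets, so they are not 8 genes. Under 8 other settings, replicates 1 and 2 gave 0 to 3 calls as higher, with 0 for median centring and for array weights. Median centring gave 1 as lower. Between the pairs these settings gave 1 to 3 calls as lower, with 1 for quantile normalization. Shares of all probe sets under these settings are not given here. In fits of wild type with 1 pair alone, replicates 1 and 2 gave 2 calls, both higher (Padi6 and Zbed3 1453848_s_at, where 6.71% of all tested passed), and replicates 3 and 4 gave Nlrp5 as higher and Zbed3 1452088_at as lower, where 41.6% of all tested passed. The median log2 change of the 9 oocyte and embryo markers was 1.02 in replicates 1 and 2 and -0.10 in replicates 3 and 4. Over all genes tested these medians were 0.04 and -0.19. The markers were mixed. Zar1 (2.745 and 2.772) and H1f8 (2.441 and 2.618) were not lower in replicates 3 and 4, while every other marker of that list was. Hybridisation control signal and granulosa marker signal also differ between these pairs as given above, and their part in these differences was not tested. In pooled whole-embryo RNA, fewer embryo cells and less of a transcript per cell cannot be told apart.

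**Figure D4:**
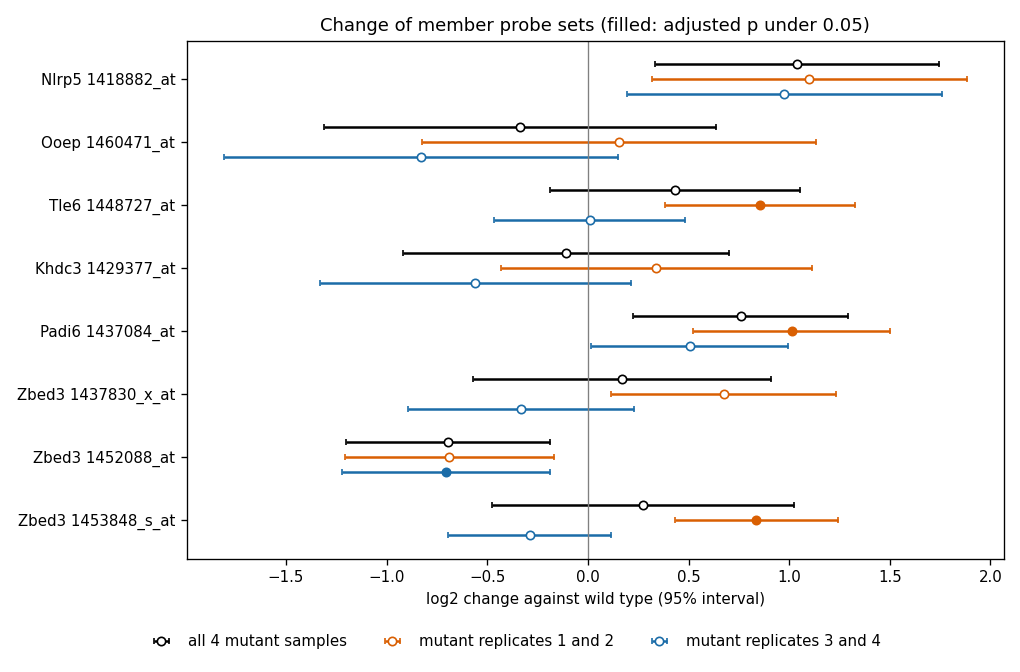
Log2 change against wild type of the 8 tested member probe sets, with 95% intervals from the limma fit, for all 4 mutant samples (black), mutant replicates 1 and 2 (orange) and mutant replicates 3 and 4 (blue); filled points passed an adjusted p of 0.05. Nlrp5 and Zbed3 1452088_at have like changes in both pairs (1.10 and 0.98, -0.69 and -0.70), whereas Tle6 has 0.86 and 0.01 and Zbed3 1453848_s_at 0.84 and -0.29, the first of which turned negative after quantile normalization.

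Over 78 tested genes of the related lists, 6 rose and 5 fell. These are 7.69% and 6.41% (14.1% in all), beside 3.01% and 4.03% (7.04% in all) of 11935 genes taken by their brightest tested probe set. The lists were chosen with earlier results of these data known, and no test was made of that difference. Of 9 tested oocyte NLRP genes, Nlrp4b rose 2.68-fold, from 377 ± 114 to 1014 ± 330 (limma adjusted p = 0.0301), Nlrp4e fell 2.67-fold, from 1966 ± 576 to 719 ± 111 (SD, n = 4 each; adjusted p = 0.0184), and 7 did not pass. Among TLE genes, Tle5, a short member that dampens the long ones, rose 2.96-fold from 56.5 ± 3.87 to 173 ± 53.5 (limma adjusted p = 0.0174), and the other 3 tested did not pass. No KH-domain relative of Ooep and Khdc3 passed (0 of 3, lowest adjusted p = 0.158, Dppa5a), nor a deiminase (0 of 2, lowest 0.744, Padi3), nor a ZBED gene (0 of 3, lowest 0.298, Zbed5).

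Further lists held other maternal-effect genes, factors linked to the complex or its members, and oocyte transcription factors. Of 21 tested maternal-effect genes, Zar1, an RNA-binding regulator of maternal mRNA, rose 6.77-fold from 361 ± 34.6 to 2452 ± 308 (SD, n = 4 each; limma adjusted p = 0.000674), and Zfp57, which protects imprints, rose 2.53-fold (adjusted p = 0.0264). Zfp36l2 also rose (limma adjusted p = 0.0466) and, as a passing gene outside the naming rule, was named after its value was seen. The ubiquitin-conjugating enzyme gene Ube2a and the Argonaute gene Ago2 fell, by limma adjusted p of 0.0207 and 0.0368, to signals 2.96-fold and 2.26-fold lower, while 16 did not pass. The other 3 tested probe sets of Ago2 did not pass, nor did the other tested probe set of Ube2a or that of Zfp36l2. Among 9 spindle and genome integrity genes linked to Khdc3, the mitotic kinase gene Aurka fell 2.00-fold and the checkpoint kinase gene Chek2 2.43-fold (limma adjusted p = 0.0307 and 0.0339). That list's median log2 change was -0.65 beside -0.05 for all genes, the lowest of the 10 lists, which ran up to 0.43 (ZBED genes). It was -0.39 in replicates 1 and 2 and -0.90 in replicates 3 and 4, beside 0.04 and -0.19 for all genes. Of 10 actin and 14-3-3 genes, Ssh1, a phosphatase that activates cofilin, rose 1.97-fold (limma adjusted p = 0.0441), with 3 other tested probe sets not passing. By its brightest tested probe set, no Axin or beta-catenin partner of Zbed3 passed (0 of 11, lowest adjusted p = 0.0703, Csnk1a1). By the same measure no oocyte transcription factor passed (0 of 6, lowest 0.0585, Taf4b), but 1 of the 2 other tested probe sets of Taf4b did. Zar1 kept its call whichever single sample was left out. Nlrp4e and Tle5 passed in 4 of those 8 fits and the other 8 genes in 2 of them. Without wild type replicate 1, 3 or 4 or mutant replicate 3, 1 list gene rose and 0 fell, and without wild type replicate 2 or mutant replicate 4, 2 rose and 1 fell. Without mutant replicate 1, 6 rose and 10 fell, and without mutant replicate 2, 6 rose and 9 fell. Calls over all 22519 tested probe sets moved as well, from 671 higher and 807 lower with all samples. They were 1263 and 1448 without mutant replicate 1 and 1411 and 1514 without mutant replicate 2. Without any 1 of the other samples they were 40 to 195 higher and 33 to 247 lower. With mutant replicates 3 and 4 left out, Aurka, Chek2, Nlrp4b, Ago2 and Zfp36l2 did not pass (limma adjusted p from 0.0620 to 0.106).

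**Figure D5:**
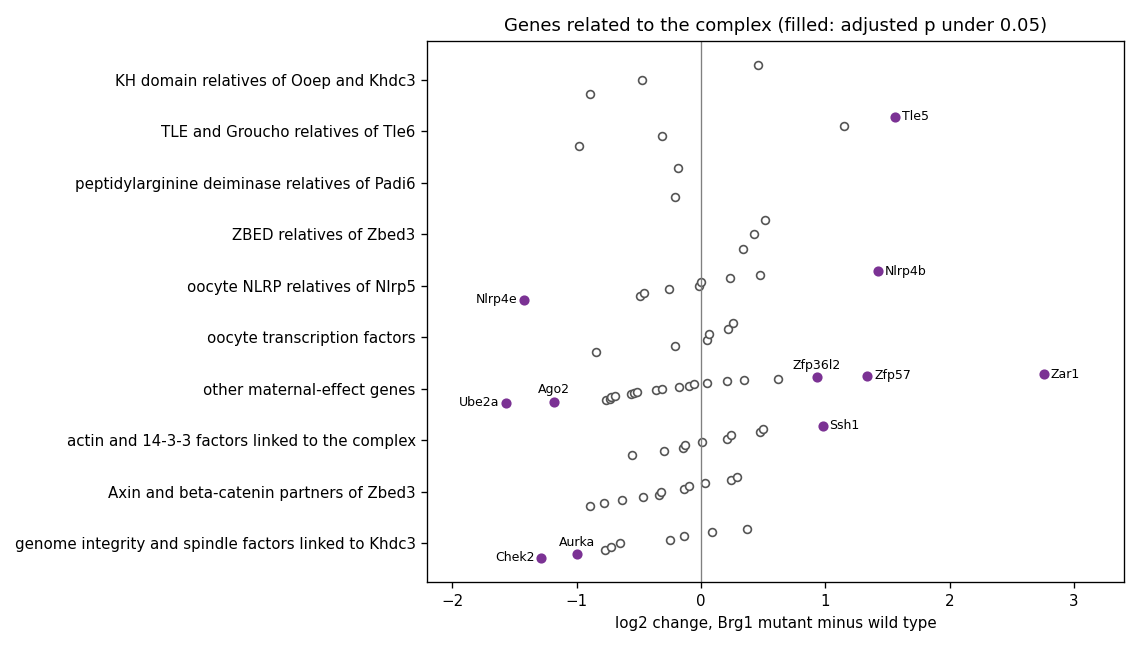
Log2 change (Brg1 mutant minus wild type) of each tested gene of the 10 related lists, by its brightest tested probe set, 1 point per gene; filled, named points passed an adjusted p of 0.05. Zar1 is farthest to the right, and the NLRP relatives hold Nlrp4b to the right and Nlrp4e to the left.

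For each member the 3 genes with the most similar profile over the 8 arrays were taken by Pearson's r between log2 signals, as a description only. For Nlrp5 these were Tdp1, Canx and Cibar1 (r = 0.993 to 0.978), for Padi6 Gpm6a, Slc20a1 and Pigu (0.989 to 0.982), and for Tle6 Gpr137b, Gm8350 and Nol4l (0.965 each). Zbed3, by 1453848_s_at, was most like Ppp1cc, 1700080O16Rik and Klf17 (0.992 to 0.990). Ooep was most like Lmbr1, Pramel12 and Ighm (0.985 to 0.968), and Khdc3 least closely matched, with Patz1, B3galt6 and Smpd3 (0.959 to 0.945). No member appeared among another member's 3. The 8 arrays fall into separate groups, and the profiles share those arrays.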

How the data were processed

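The authors deposited 1 MAS5 intensity for each probe set and array, unlogged; MAS5 is named in the submitters' processing notes, its version nowhere. The trimmed mean (2% from each end) was 150 on all 8 arrays, so none was rescaled, and no pair held identical values. The small number of arrays limits precision. The series design calls the samples biological replicates, with no parents named. Signals were floored at 1 and put on the log2 scale. Without the 64 control probe sets, the upper 50% by mean log2 signal (22519 of 45037) were fitted with limma 3.58.1 in R 4.3.3 (lmFit and eBayes, intensity trend), Benjamini-Hochberg adjusted over all of them, at a threshold of 0.05; the mutant pairs had a fit with 3 groups. Both fits were run on simulated data with independent noise at the wild type spread. The simulation lacked the array-wide split of the mutant samples, so it cannot show how the fits behave under it. The background bound was the 95th percentile of 27 Bacillus control probe sets per array. Genes were named from the platform annotation (34945 probe sets with 1, 932 with several, 9160 with none); 34741 gene identifiers matched RefSeq, changing 0 symbols. Named were all members, Smarca4, up to 4 passing genes of each related list (otherwise its lowest adjusted p) and 3 like profiles a member. Members, lists and the split of mutant samples were chosen with earlier results of these data known. Alternatives were 3 other scalings, 2 other filters, a pseudocount of 12.5, no trend, array weights, a replicate block, and single samples or mutant pairs left out.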

Additional observations from a re-analysis of the deposited data

Results flagged for a closer look

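Tle6 in wild type replicate 3 read 649.4, under the other wild type samples at 748.9 to 767.3, and its gap to the nearest was 0.855 of the group's range on the log2 scale, above Dixon's limit for 4 samples. It was the only such case among 18 groups of 4 looked at, where chance gives about 1 in 20.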

How the results depend on the processing

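Nlrp5, Padi6 and Zbed3 1452088_at kept their direction in all 19 alternatives; Tle6 ran down to 0.0093, without mutant replicates 1 and 2. Over all probe sets, 671 passed as higher and 807 as lower, against 421 and 1558 with median centring, 5099 and 6388 with array weights, 10 and 5 with the replicate block and 4126 and 5233 without mutant replicates 1 and 2. Leaving out 1 sample gave 40 to 1411 higher and 33 to 1514 lower. Of members, 2 passed as higher and 2 as lower with array weights, 2 as higher without mutant replicates 3 and 4, 1 and 1 without replicates 1 and 2, and 0 to 1 as lower with 1 sample left out; their median was 0.76 and -0.31 without those pairs.

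Zbed3 1453848_s_at turned to -0.25 (quantile), -0.12 (array weights) and -0.29 (without replicates 1 and 2). Zbed3 1437830_x_at turned to -0.0066, -0.14 and -0.33 with median centring, array weights and that pair left out, and ran from -0.025 to 0.37 with 1 sample left out. Khdc3 ran from -0.35 to 0.11, and was 0.34 without replicates 3 and 4, where Ooep was 0.15. The cause was not tested. In the fit with 3 groups, replicates 1 and 2 against wild type turned for Zbed3 1453848_s_at (-0.25, quantile) and Ooep (-0.095, median centring; -0.18, array weights). Replicates 3 and 4 against wild type turned for Tle6 (-0.095, median centring; -0.22, 75th percentile). Between pairs, Nlrp5 turned to 0.029 (quantile) and 0.022 (median centring), and Zbed3 1452088_at to 0.0017 and 0.13. The Zbed3 log2 ratio difference, with alternatives chosen after seeing the data, was 1.53 and 0.42 without replicates 3 and 4 or 1 and 2, and 0.349 after quantile normalization (0.353 and 0.346 without those pairs), none passing.

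Deviations of samples with the same replicate number correlated at -0.177 to 0.024. These values cannot exclude a pairing, because the difference between the mutant pairs is part of the deviations. With the replicate block, 0 members passed and Zar1 alone of the related genes (adjusted p = 0.0227). Of related genes, 3 rose and 8 fell with median centring, beside 421 and 1558 of all tested probe sets. With array weights 13 rose and 36 fell (beside 5099 and 6388). Without the mutant pair 3 and 4, 8 rose and 2 fell (beside 810 and 701). Leaving out the pair 1 and 2 gave 10 and 32 (beside 4126 and 5233). Signal near background limited Zbed3 1437097_at.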
